A study of Mus musculus with 6 samples.

Results

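The replication-dependent histone genes encode the core histones H2A, H2B, H3 and H4 and the linker histone H1 that package new DNA. They were chosen by name, as probe sets that carry exactly 1 gene symbol of the canonical H1, H2A, H2B, H3 or H4 series (H1f1 to H1f6, H2ac, H2bc, H3c and H4c). Of several such probe sets for a gene, the brightest by its mean over the 6 arrays was used. The rule found 26 genes among the 22180 genes tested: 5 of H1, 6 of H2A, 8 of H2B, 0 of H3 and 7 of H4.

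The 6 arrays measured total RNA from cultured myoepithelial cells, the contractile cells around the secretory units, of the exorbital lacrimal gland of female mice. One group of 3 arrays came from TSP1 null mice, which lack thrombospondin-1 and serve in this series as the dry eye model, and the other 3 from wild type C57BL/6J mice. No treatment was given, both groups were cultured for about 2 to 3 weeks, and the labels do not give the ages, the background strain of the null mice, or whether each biological replicate was its own animal or culture. The p-values therefore measure the spread between these arrays.

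In most cells these genes are transcribed in S phase, when DNA is copied. Their transcripts usually end in a stem-loop held by the stem-loop binding protein Slbp in place of a poly(A) tail, and some of them can also be polyadenylated. The genes lie in clusters with many near-identical copies, which are transcribed at nuclear histone locus bodies organised by Npat and Casp8ap2 (FLASH). The labels name a one-cycle cDNA kit, and kits of that kind start cDNA synthesis at poly(A) tails. Whether the material on these whole-gene arrays was in fact primed in that way is uncertain and was not tested. Which form of the transcripts gave the signals was therefore not tested either.

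Array medians lay between 5.25 and 5.32 on the log2 scale, and the median signal over all arrays and probe sets was 5.28. The targeted gene Thbs1 was lower in the null arrays (12.73, 13.03 and 13.00) than in the wild-type arrays (13.51, 13.75 and 13.54), and the position of its probes relative to the disruption was not analysed here. Acta2, a smooth muscle actin on the list of myoepithelial markers, was at 13.85 to 13.99 in the null and 13.93 to 14.01 in the wild-type arrays. The mean over 9 of 10 myoepithelial markers was 7.89 to 8.33 in the null and 7.67 to 7.75 in the wild-type arrays. Krt14 among them was at 5.78 to 6.35 and 4.93 to 5.52. The brightest of the list were the contractile genes Acta2 (13.95 over the 6 arrays) and Cnn1 (12.03). Its keratins and Trp63 lay near or below the median signal, with Krt14 at 5.67, Krt17 at 5.30 and Trp63 at 4.685, and Krt5 was not measured. Markers of other cells were also present: the mean over 20 macrophage markers was 7.45 to 9.97 in the null and 9.76 to 10.6 in the wild-type arrays, and that over 12 fibroblast markers 10.2 to 10.7 and 9.90 to 11.1. Cd68 (macrophages) was at 9.66 to 12.16 and 12.46 to 12.99, and Col1a1 (fibroblasts) at 13.18 to 13.53 and 12.56 to 12.89. Of the 12 fibroblast markers 6 had a higher mean in the null arrays, as Col1a1 did, and 6 a lower one. The 9 acinar markers were at 4.49 to 4.78 and 4.89 to 5.05, with 5 of 9 below the median signal. In such mixed cultures a change in the number of cells of a type and a change in RNA per cell cannot be told apart.

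None of the 26 histone genes passed the test for a difference between TSP1 null and wild-type cultures. With limma and Benjamini-Hochberg adjustment over all 22180 genes, 0 of 26 passed an adjusted p of 0.05, as did 0% of all genes. At an unadjusted p under 0.05 there were 0 of 26 in either direction, where 6.28% of all genes were higher and 4.27% lower in the null group. The differences, written throughout as null minus wild type, ran from -0.46 to 0.27 with a median of -0.054. The median over all genes was 0.022. There were 9 histone genes above 0 and 17 below, where 55.1% of all genes were above 0 and 44.9% below. With each array centred on its median the split was 12 above and 14 below, with a median of -0.016. That centring moved all genes as well, to 37.2% below 0 and a median of 0.060. The 95% intervals of the single genes, not adjusted for the number of genes, reached from 0.264 to 1.00 to either side of the difference (median 0.551). Differences within those bounds were not detectable with 3 arrays per group, and the adjusted threshold asked for larger ones.

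**Figure D1:**
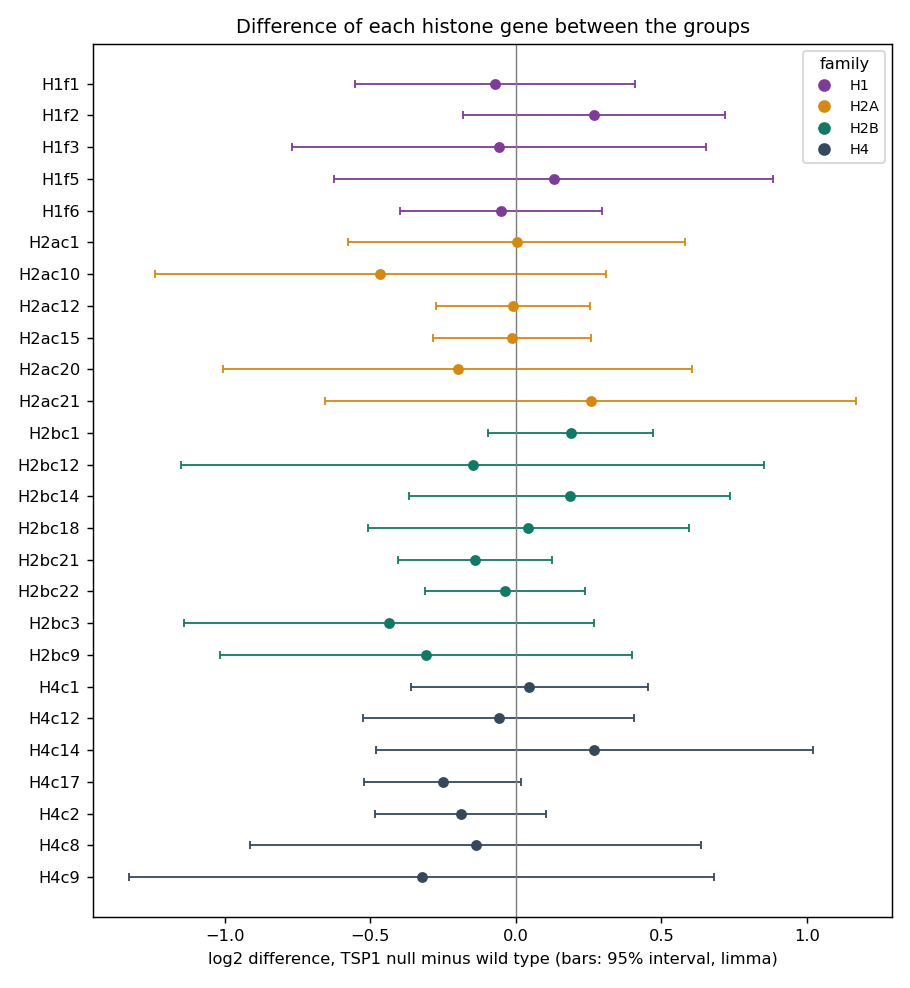
Difference of each of the 26 histone genes (TSP1 null minus wild type, log2 scale, x axis) with limma's 95% interval as a bar, grouped by family. Every interval includes 0, and the points lie between -0.46 and 0.27.

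Of 63 protein-coding genes with names of the rule in the RefSeq table (assembly GRCm38.p6), 26 had a probe set of their own and 37 were measured only on probe sets that list several histone genes. Coverage was uneven: 5 of 6 H1 genes, 6 of 17 H2A genes, 8 of 16 H2B genes, 0 of 12 H3 genes and 7 of 12 H4 genes had a probe set alone, and 14 of the 26 were listed on a shared one as well. By older symbols 21 of the 26 belong to the large cluster Hist1 on chromosome 13 and 5 to Hist2 on chromosome 3. Because the copies are nearly identical in sequence, a probe set listed for 1 gene may also take up transcripts of its neighbours, and the value of a single gene is uncertain to that extent. Only 13 of the 26 had a mean above the median signal.

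The linker histones bind the DNA where it enters and leaves the nucleosome. H1f2 measured 9.08, 9.01 and 8.96 in null and 8.44, 9.19 and 8.60 in wild-type arrays. The null arrays lay close together and inside the range of the wild-type arrays, and the difference of 0.27 (SE 0.19, n = 3 per group, 1.21-fold) was not called by limma (adjusted p = 0.669). H1f5 measured 6.95, 5.92 and 6.27 against 6.21, 5.75 and 6.79, a difference of 0.13 (SE 0.32, limma adjusted p = 0.922). For H1f3 the values were 5.17, 5.89 and 5.01 against 5.15, 6.00 and 5.09. Its 2 groups were nearly superimposed, each with 1 high array, and differed by -0.057. H1f1 had values of 4.60, 3.78 and 4.36 against 4.38, 4.18 and 4.39, and H1f6, the testis form, 3.71 to 4.06 against 3.76 to 4.09. Both lay below the median signal, where RMA compresses differences.

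H2A forms a dimer with H2B on the outer face of the histone core. H2ac10 had the lowest difference of all 26 genes, with 11.03, 9.95 and 10.77 in the null and 11.42, 10.46 and 11.26 in wild-type arrays. The null mean was 10.58 ± 0.57 and the wild-type mean 11.05 ± 0.51 (SD, n = 3), and the difference of -0.46 (SE 0.33, 95% interval -1.24 to 0.31, 0.725-fold) was not called by limma (adjusted p = 0.669). In each group 1 array, the second, was lower than the other 2, and the groups overlapped. H2ac20 measured 8.17, 6.82 and 7.46 against 7.71, 7.26 and 8.08, a difference of -0.20 (SE 0.35). H2ac21 measured 6.74, 5.41 and 6.04 against 5.81, 5.19 and 6.42, a difference of 0.26 (SE 0.39). The dimmer second probe set of H2ac21 differed by -0.18, so the direction of that gene depends on the probe set. H2ac1, a form known from testis, gave 5.98, 6.08 and 5.40 against 5.37, 6.16 and 5.91, a difference of 0.0034 (SE 0.25). H2ac12 and H2ac15 stayed at 2.46 to 3.06 on all arrays, near the lower end of the scale.

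Among the H2B genes, H2bc3 measured 7.17, 6.04 and 6.51 in the null and 7.46, 6.76 and 6.81 in the wild-type arrays. Its difference of -0.44 (SE 0.30, 95% interval -1.14 to 0.27) was not called by limma (adjusted p = 0.656), and the highest null array lay inside the wild-type range. H2bc12 varied most among the H2B genes, at 6.95, 5.05 and 6.49 in the null and 6.43, 6.15 and 6.35 in the wild-type arrays. Its null SD was 0.99 and its wild-type SD 0.14, with the second null array far below the others. H2bc9 measured 4.26, 3.92 and 4.58 against 4.58, 3.95 and 5.16, a difference of -0.31 (SE 0.30). H2bc18 differed by 0.043 and H2bc14 by 0.19 (SE 0.24 for each). The testis form H2bc1 was at 2.48 to 2.87 on all arrays and H2bc22 at 3.55 to 3.85. H2bc21, whose protein H2BE is known from olfactory neurons, was among the steadiest of the genes above the median signal, at 5.25 to 5.50 in the null and 5.46 to 5.60 in the wild-type arrays.

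All H4 genes encode the same protein, so their transcripts differ mainly in the untranslated ends and in silent positions. H4c12 measured 11.96, 11.34 and 11.48 in the null and 11.81, 11.34 and 11.79 in the wild-type arrays, a difference of -0.059 (SE 0.20, 95% interval -0.52 to 0.41). H4c9 had the largest SD over the 6 arrays of all 26 genes, 0.661, with 6.83, 8.27 and 6.64 against 7.28, 8.12 and 7.31. The second array of each group stood above the other 2, and the difference of -0.32 (SE 0.43) had an interval from -1.33 to 0.68. H4c8 had 4.50, 5.50 and 4.61 against 4.48, 5.54 and 5.01, with the second arrays again high. H4c17 was the only gene of the 26 whose groups did not overlap, at 3.75, 3.81 and 3.87 in the null below 4.02, 4.22 and 3.94 in the wild-type arrays. That is 1 of 26 genes with the null arrays below, where 5.75% of all genes had them below and 10.1% above. Its difference was -0.25 (SE 0.12, 95% interval -0.52 to 0.019, limma adjusted p = 0.505), at a signal far below the median. H4c14 differed by 0.27, H4c1 by 0.047 and H4c2 by -0.19, and limma called none of them.

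**Figure D2:**
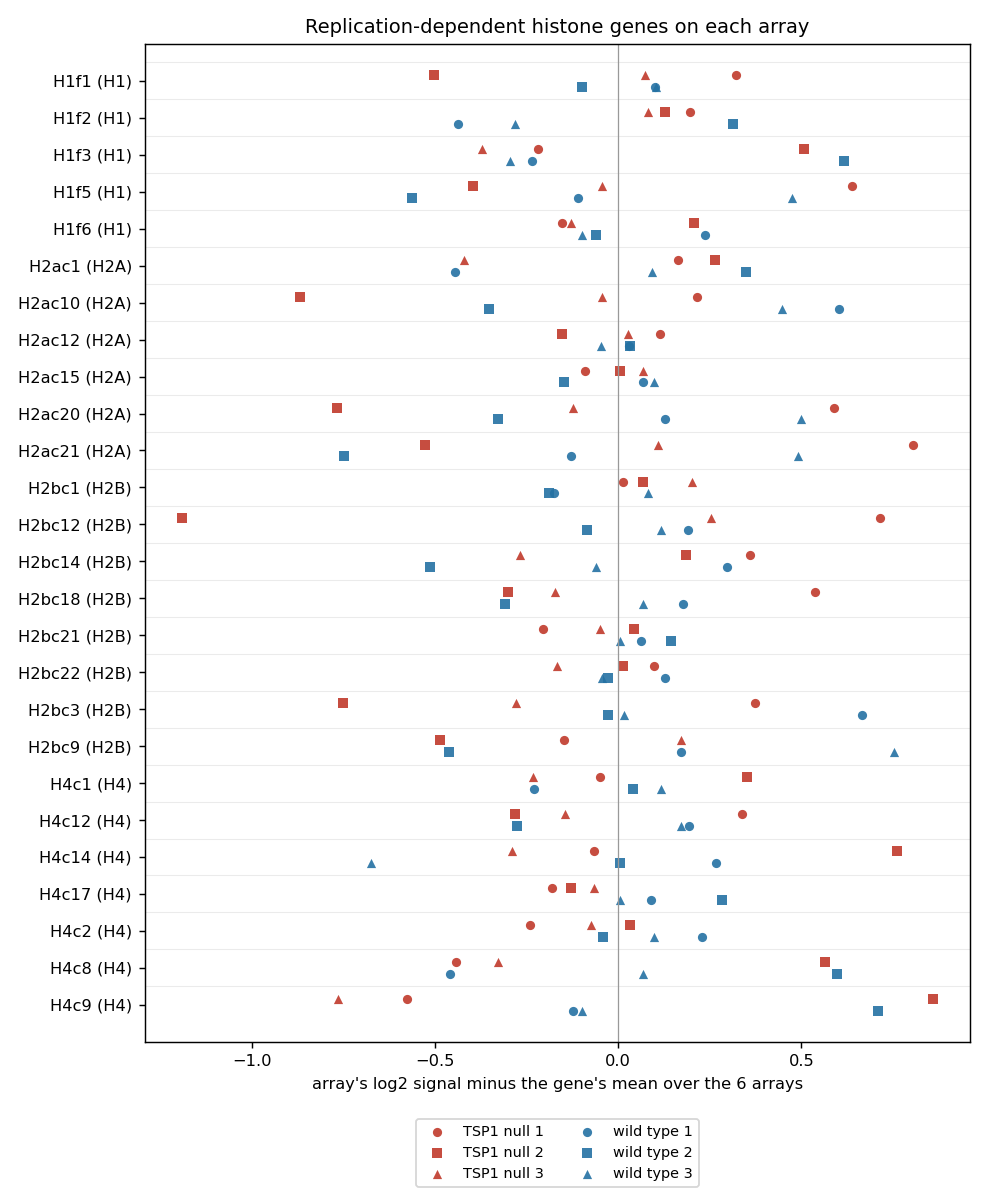
Signal of each of the 26 histone genes on each array, as its difference from the gene's mean over the 6 arrays (log2, x axis), with TSP1 null arrays in red and wild-type arrays in blue and the array number as the shape. Red and blue points overlap for every gene except H4c17, and the second arrays (squares) often lie at the edges, as for H2ac10, H4c8 and H4c9.

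Many of these genes followed the second array of both groups. In 10 of 26 genes (38.5%) the second array was the lowest of its group in both the null and the wild-type arrays, where 14.1% of all genes were so. In 5 of 26 it was the highest in both, where 13.7% of all genes were so. The first arrays were highest in both groups in 7 of 26 genes (8.94% of all genes) and lowest in 1 of 26 (11.3%). The third arrays were highest in 3 of 26 (9.54%) and lowest in 3 of 26 (7.59%). Over all genes a pair of unlike number shared extremes about as often as the second arrays. The third null and first wild-type arrays were both highest in 13.4% and both lowest in 14.8% of all genes, and in 0 and 4 of the 26 histone genes. The second arrays lay at least 0.5 (log2) above or below the mean of the other 2, averaged over the groups, in 11 of 26 genes (42.3%), where 5.36% of all genes did. This pattern was noticed after the values were seen and is described without a test. The labels do not say that a replicate number marks a shared animal, day or batch, and over all genes the deviations of same-numbered arrays from their group means correlated at -0.14, 0.18 and -0.16 for numbers 1, 2 and 3.

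The 10 genes lowest on both second arrays were H1f1, H1f5, H2ac10, H2ac20, H2ac21, H2bc3, H2bc9, H2bc12, H2bc18 and H4c12. Their second arrays lay 0.42 (H4c12) to 0.96 (H2ac21 and H2bc12) below the others, averaged over the groups. For H2ac10 the second null array was 0.95 and the second wild-type array 0.88 below the other 2 of its group. For H2bc12 those offsets were -1.67 and -0.24, so that gene's position rested mostly on the null array. The 5 genes highest on both were H1f3, H2ac1, H2bc21, H4c8 and H4c9. H4c9 stood 1.53 above the other null arrays and 0.82 above the other wild-type arrays, H4c8 0.95 and 0.79, and H1f3 0.80 and 0.88. Over all genes the 1st and 99th percentiles of this offset, averaged over the groups, were -0.72 and 0.79, so the offsets of H4c9, H4c8 and H1f3 lay above that range and those of H2ac10, H2ac20, H2ac21 and H2bc12 below it.

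**Figure D3:**
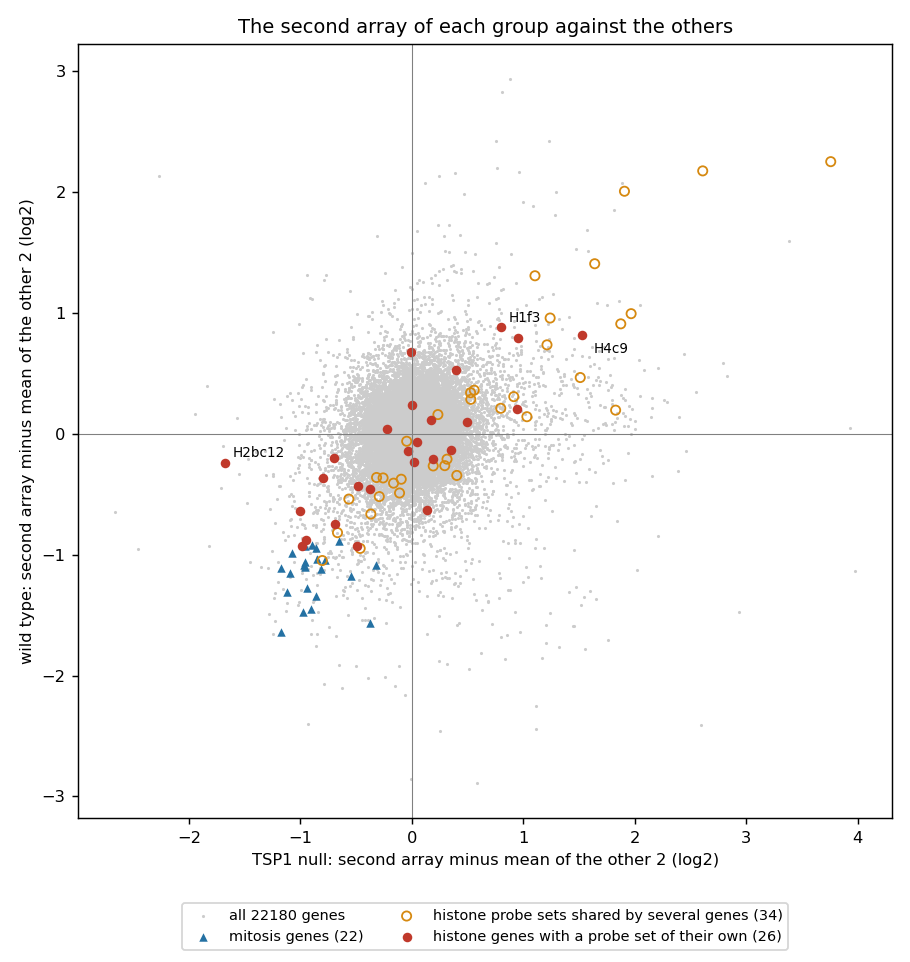
Second array minus the mean of the other 2 arrays of its group (log2), for TSP1 null (x axis) and wild type (y axis), with all 22180 genes in grey. Histone genes (red) lie in both the lower left and the upper right, mitosis genes (blue triangles) lie in the lower left, and several histone probe sets shared by several genes (open circles) lie at the far upper right.

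The promoters of these genes carry elements that are well known in histone genes, and they are shown here for 3 genes that were low and 3 that were high on both second arrays. RefSeq promoter windows (GRCm38.p6) were at hand for 24 of the 26 genes and for 58 histone genes in all (59 windows). The 250 bases before the start were searched on both strands for 4 motifs. One is the TATA box, searched as TATAAA, which sets the start of transcription. Another is the CCAAT box, and the third is the octamer bound by Oct1, searched as ATTTGCAT. The last is the element of H1 promoters, searched as AAACACA. None of these motifs contains another. The sequences below are the 160 bases before the start, 5′ to 3′ along the gene, with matches to any of the motifs on either strand in capitals. The first 3 belong to genes low on the second arrays.
H2ac10 promoter, chr13:23533715-23533874, plus strand: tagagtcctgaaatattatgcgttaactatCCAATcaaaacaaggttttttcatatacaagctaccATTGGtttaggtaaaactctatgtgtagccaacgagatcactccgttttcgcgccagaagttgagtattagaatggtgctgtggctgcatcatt
H2bc3 promoter, chr13:23746574-23746733, plus strand: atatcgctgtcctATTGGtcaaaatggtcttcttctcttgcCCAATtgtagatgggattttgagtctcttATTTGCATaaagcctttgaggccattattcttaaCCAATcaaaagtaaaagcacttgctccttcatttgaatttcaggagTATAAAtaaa
H2bc12 promoter, chr13:22035661-22035820, plus strand: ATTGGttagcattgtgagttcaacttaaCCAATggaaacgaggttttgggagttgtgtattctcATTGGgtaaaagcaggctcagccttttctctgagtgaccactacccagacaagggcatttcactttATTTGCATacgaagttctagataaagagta

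The other 3 belong to genes high on the second arrays.
H1f3 promoter, chr13:23554872-23555031, plus strand: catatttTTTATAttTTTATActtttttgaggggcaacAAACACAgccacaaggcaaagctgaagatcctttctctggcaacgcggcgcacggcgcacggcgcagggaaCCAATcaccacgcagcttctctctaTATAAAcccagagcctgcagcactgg
H4c8 promoter, chr13:23530884-23531043, plus strand: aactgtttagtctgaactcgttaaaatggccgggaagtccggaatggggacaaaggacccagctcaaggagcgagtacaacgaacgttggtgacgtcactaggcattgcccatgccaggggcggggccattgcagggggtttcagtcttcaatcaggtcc
H4c9 promoter, chr13:22041363-22041522, minus strand: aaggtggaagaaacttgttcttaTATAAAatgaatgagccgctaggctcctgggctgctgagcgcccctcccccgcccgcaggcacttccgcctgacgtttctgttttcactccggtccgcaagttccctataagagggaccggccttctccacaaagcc

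CCAAT was present in 17 of 17 H2A, 15 of 15 H2B, 6 of 6 H1, 8 of 10 H3 and 3 of 11 H4 windows, and in 33.8% of all 32851 windows. The octamer was present in 7 of 15 H2B and 6 of 17 H2A windows and in 0 of the H1, H3 and H4 windows, where 1.6% of all windows held it. AAACACA was present in 5 of 6 H1 windows, 2 of 17 H2A and 2 of 15 H2B windows, against 6.25% of all windows. TATAAA was present in 4 of 6 H1, 7 of 17 H2A, 7 of 15 H2B, 4 of 10 H3 and 6 of 11 H4 windows, against 12.4% of all. The printed windows follow these family differences: H2bc3 and H2bc12 hold CCAAT and the octamer, H1f3 holds AAACACA and a TATA box close to the start, and H4c8 holds 0 of the motifs in 160 bases. Among the genes lowest on both second arrays CCAAT was present in 9 of 10 windows, and among those highest on both in 2 of 4 windows, where the 2 without it were H4 genes, a family in which 3 of 11 windows hold it. In 9 cases an H2A and an H2B gene lay head to head with overlapping windows, and for H2ac12 with H2bc12 and H2ac1 with H2bc1 both genes were among the 26. H2ac1 had its second array highest in both groups and H2bc1 in neither, and H2bc12 had it lowest in both groups and H2ac12 in only the null group. H2bc1 (2.48 to 2.87) and H2ac12 (2.46 to 2.73) lay near the lower end of the scale. The order of their arrays therefore cannot show whether paired genes moved alike. A match is a description of the sequence and does not show binding.

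H3 genes could be followed only on shared probe sets. There were 34 distinct probe sets that list several histone genes and no other gene: 9 of H2A, 7 of H2B, 12 of H3, 5 of H4 and 1 of H1f4 with 3 H2B genes. They were fitted together with the named genes (22214 features), and 0 of 34 passed an adjusted p of 0.05 (0% of all features). At an unadjusted p under 0.05 there were 3 of 34 lower in the null group, where 4.27% of all features were, and 0 higher, where 6.27% were. The differences were below 0 in 27 of 34, with a median of -0.30, where 44.9% of all genes were below 0. All 9 H2A sets (median -0.36) and all 7 H2B sets (median -0.29) were below 0, as were 8 of 12 H3 sets (median -0.23) and 2 of 5 H4 sets (median 0.093). With arrays centred on their medians 8 of 9 H2A, 7 of 7 H2B, 7 of 12 H3 and 1 of 5 H4 sets were below 0. Of all genes 37.2% were below 0 with that centring. Many of these sets list the same genes, so they are not separate measurements, and their median was lower than that of the 26 genes with a probe set alone.

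The smallest p among them belonged to an H2A set that lists 10 genes (probe set 17291204). It measured 4.99, 5.02 and 4.43 in null and 5.76, 5.51 and 5.68 in wild-type arrays. The groups did not overlap and differed by -0.83 (SE 0.18, 95% interval -1.25 to -0.42), but limma's adjusted p was 0.284. A set of 3 H2A genes of the Hist2 cluster, H2ac18, H2ac19 and H2ac20 (probe set 17400545), also had its null arrays below. It measured 12.10, 12.10 and 11.72 against 12.21, 12.10 and 12.53. The highest null and the lowest wild-type array were apart only at the third decimal, and the difference was -0.31 (limma adjusted p = 0.551). These are 2 of 34 sets with the null arrays below, where 5.75% of all features were so. An H3 set that lists 8 genes (probe set 17400555) measured 10.03, 9.67 and 9.50 against 10.33, 9.93 and 10.28, a difference of -0.45 (SE 0.17, limma adjusted p = 0.441), with the groups overlapping.

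The second arrays stood out further on the shared sets, with the largest offsets on sets of H4 and H3. An H4 set that lists 13 genes (probe set 17285846) measured 4.45, 8.03 and 4.10 in null and 5.35, 7.77 and 5.68 in wild-type arrays. Averaged over the groups, its second arrays lay 3.01 above the others, the highest such offset among all 41345 deposited probe sets. A second set of the same 13 genes (17291019) measured 7.68, 10.35 and 7.80 against 6.79, 9.97 and 8.79, an offset of 2.39 that ranked 3 among all probe sets. Other sets listing those genes moved less: 17291208 had 4.35, 6.09 and 4.18 against 4.67, 4.77 and 4.48, with the second wild-type array only slightly above the others, and 17291180 had an offset of 0.46. The H3 set 17285871, which lists 8 genes, measured 4.32, 6.19 and 4.24 against 4.07, 6.996 and 5.90, an offset of 1.96. The set of H1f4 with H2B genes (17291195) had 6.61, 8.38 and 6.86 against 6.91, 8.64 and 7.56, an offset of 1.52. In all, 17 of 34 shared sets were highest on both second arrays (13.7% of all genes) and 9 of 34 lowest (14.1%). The highest were 4 of the 5 H4, 5 of the 12 H3 and 4 of the 7 H2B sets. Also highest were 3 of the 9 H2A sets and the set of H1f4 with H2B genes. The lowest were 4 of the 9 H2A, 3 of the 7 H2B and 2 of the 12 H3 sets. Many of these sets list the same genes, so the counts are not of separate measurements.

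**Figure D4:**
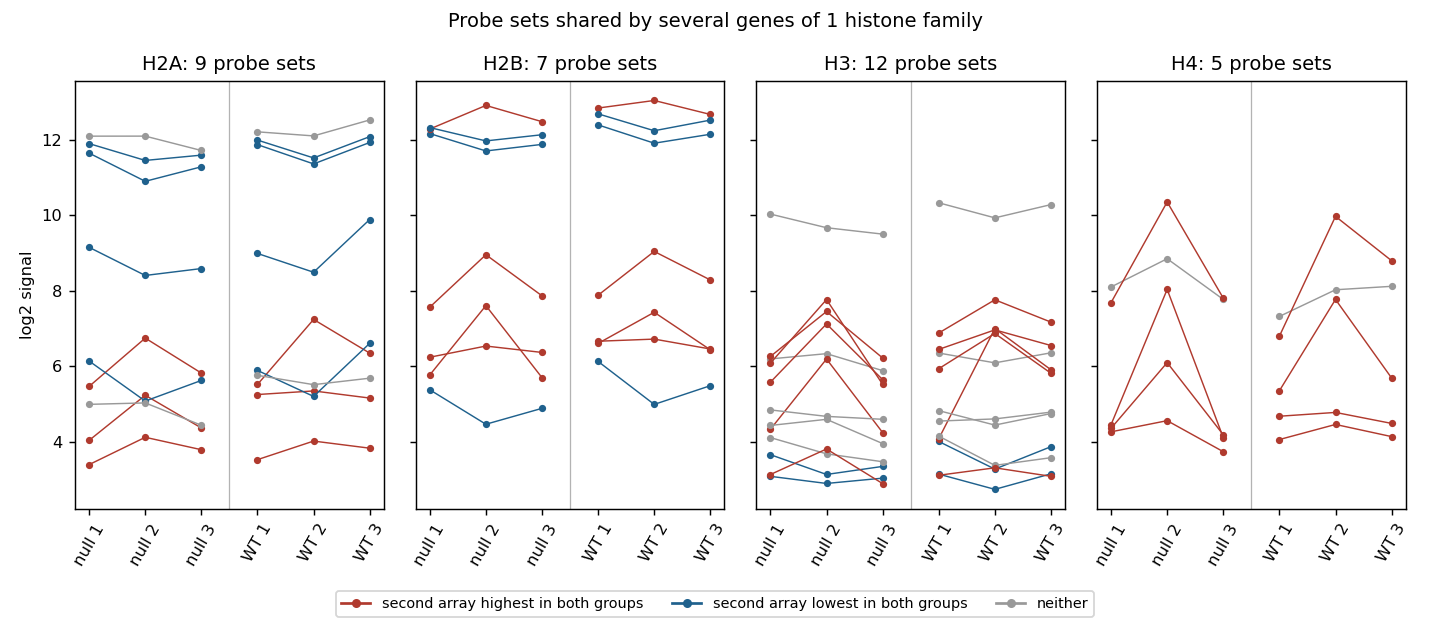
Log2 signal (y axis) of the 33 probe sets that list several genes of 1 histone family, on the 3 TSP1 null and 3 wild-type arrays (x axis), with lines joining the arrays of a group. Red lines have the second array highest in both groups, blue lines have it lowest in both, and grey lines neither; the steepest red lines are H4 and H3 sets.

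Other gene groups tied to histone supply and to S phase did not share the high second arrays. In the mitosis list 22 of 22 measured genes, and in the DNA replication list 28 of 39, had both second arrays lowest, and 0 of either list had them highest, where 14.1% and 13.7% of all genes did. The median offset of the second arrays was -1.02 for mitosis genes and -0.42 for DNA replication genes. The 20 macrophage markers had a median offset of 0.97, made up of 1.64 in the null and 0.23 in the wild-type group. In the null group the second array was highest and the third lowest for 20 of 20 markers, while in the wild-type group the third array was highest for 15 of 20 and the second for 4 of 20. The second arrays were low in both groups for the 10 histone genes and the mitosis genes. They were high in both for 4 of 5 H4, 5 of 12 H3, 4 of 7 H2B and 3 of 9 H2A shared sets. Against that, 4 of 9 H2A, 3 of 7 H2B and 2 of 12 H3 sets were low in both. The part of proliferation and of macrophage content in the histone signals was not tested.

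DNA replication genes were measured for 39 of 42 listed. None passed the adjusted threshold in limma, 33 were below 0 and 6 above, and at an unadjusted p under 0.05 there were 2 of 39 lower and 0 higher, where 4.27% of all genes were lower and 6.28% higher. Pcna, the sliding clamp of DNA polymerase, measured 9.83, 9.76 and 9.86 in the null below 10.22, 10.04 and 10.62 in the wild-type arrays (-0.47, SE 0.16, limma adjusted p = 0.387). Rrm2, the small subunit of ribonucleotide reductase, differed by -0.67 (SE 0.22), again without overlap and not called, and by -0.27 where its probe sets were averaged. Mcm2, a subunit of the replicative helicase, differed by 0.015 (SE 0.20). Of 22 mitosis genes 21 were below 0 with a median of -0.62, 3 of 22 lower at an unadjusted p under 0.05 (4.27% of all genes) and 0 of 22 adjusted. Mki67, a marker of cycling cells, differed by -1.03 (SE 0.29) and Top2a by -0.64 (SE 0.35), with limma adjusted p of 0.338 and 0.566. Cenpe, a kinetochore motor, differed by -1.05 (SE 0.33) and was not called. The medians of these 2 lists, -0.17 and -0.62, stand beside -0.054 for the histone genes and 0.022 for all genes. Whether the lists differ from one another was not tested.

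The factors that make and process histone transcripts were measured for 17 of 17 genes listed, with 9 above 0 and 8 below, and 0 passed the adjusted threshold. Slbp measured 8.67, 8.38 and 8.88 in the null and 8.99, 8.55 and 8.81 in the wild-type arrays, a difference of -0.14 (SE 0.17, limma adjusted p = 0.819). Its second array was the lowest in both groups, as in 9 of the 17 genes, where 14.1% of all genes were so. Npat had 8.50, 8.80 and 8.76 below 9.09, 8.90 and 8.87 (-0.27, SE 0.13) and Casp8ap2 had 7.28, 7.49 and 7.35 below 8.23, 7.51 and 7.68 (-0.44, SE 0.19), and limma called neither (adjusted p = 0.517 and 0.476). Hinfp, a transcription factor for H4 genes, went the other way, with 7.22, 7.06 and 7.13 above 6.40, 6.72 and 6.87 (0.48, SE 0.14, limma adjusted p = 0.354). Upf1, a helicase that takes part in histone mRNA decay, differed by 0.45 (SE 0.19) with overlapping groups. At an unadjusted p under 0.05 the list had 2 of 17 genes higher (6.28% of all genes) and 0 lower (4.27%).

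Of the histone chaperones and carriers 20 of 22 were measured, with 12 above 0 and 8 below, 2 of 20 higher at an unadjusted p under 0.05 (6.28% of all genes) and 0 adjusted. Cabin1 (0.43, SE 0.15) and Hira (0.31, SE 0.13), both of the HIRA complex that deposits histone H3.3 outside S phase, had their null arrays above the wild-type arrays. They were 2 of 20 with the null arrays above, where 10.1% of all genes were so, and limma called neither (adjusted p = 0.391 and 0.465). Ubn1, listed with them, differed by 0.13 (SE 0.11) with overlapping groups. Of the histone variants that are made outside S phase as well, and of the centromeric histone Cenpa, 8 of 11 listed genes were measured, with 3 above 0, 5 below and 0 at an unadjusted p under 0.05. Cenpa differed by -0.34 (SE 0.28) and Macroh2a2 by -0.21 (SE 0.24). In 5 of the 8 the second array was lowest in both groups (14.1% of all genes), and in 0 highest (13.7%).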

How the data were processed

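Total RNA (150 ng per array) of 3 TSP1 null and 3 wild-type cultures was labelled with biotin and hybridised to Affymetrix Mouse Gene 2.0 ST arrays. For each array the authors deposited 41345 log2 signals, made with Partek and RMA per the submitters' processing notes. RMA corrects background, normalizes quantiles and summarises probes, and it compresses differences of dim probe sets. The sources used here name no version, setting or build. Groups and replicate numbers come from the titles.

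The platform annotation gave 1 symbol for 23521 probe sets and several for 1814. Named genes (22180, no intensity filter) were compared with limma 3.58.1 (lmFit and eBayes, two-sided, R 4.3.3) as null minus wild type without covariates, with Benjamini-Hochberg adjustment over all of them. The procedure was tested on simulated data. SEs and 95% intervals are limma's. The number of arrays limits the precision. Histone probe sets with several symbols were added in a second fit. Repeats of the same values were counted once. Promoter windows are RefSeq's, and figures were drawn with Python 3.11.15 and matplotlib 3.10.9.

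The members and gene lists were chosen with earlier results of these data known. Named were, in each histone family, the 3 genes of smallest p in each direction, the 3 with the largest SD, the 2 genes of smallest p of each list that is no marker list, and Slbp, Npat, Casp8ap2, Pcna, Mcm2, Mki67, Top2a, Acta2, Krt14, Cd68, Col1a1 and Thbs1. The remaining histone genes (H2ac12, H2bc22, H4c8 and H4c12) and the shared probe sets were named after their values were seen. Alternatives were other normalizations, filters, probe set rules, variance models, weights for arrays, a block for the replicate number, and arrays left out.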

Additional observations from a re-analysis of the deposited data

How the results depend on the processing

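Under all settings tried 0 histone genes were called by limma. Of 768 values of 46 named genes under the alternatives, 698 kept their direction and 69 reversed. The remaining 1 (Acta2 under quantile normalization) was at 0, and 0 passed the threshold. Some settings could not change a difference: the variance models, the balanced replicate block, the fit on every deposited probe set and the filter on dim genes. Averaging probe sets could change only genes with several of them. Part of the 698 was therefore fixed in advance, and that count does not measure stability. The reversals touched 19 of the 26 histone genes, so the direction of most single histone genes is not settled by these arrays.

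The count of all genes called was 0 to 34 when single arrays were left out, where 34 came from leaving out the second null array and 1 from leaving out the first wild-type array. It was 2 on every deposited probe set, 365 without the second null and first wild-type arrays, and 2 without both second arrays, a setting chosen after seeing the data. Histone genes at an unadjusted p under 0.05 numbered 0 to 2 of 26 lower and 0 to 1 higher without single arrays, where 2.73% to 5.6% of all genes were lower and 3.9% to 6.76% higher. They were 2 lower and 1 higher without the second null and first wild-type arrays (7.48% and 8.29% of all genes), and also without both second arrays (5.5% and 6.11%). The ordinary linear model gave 1 lower (2.67%). With the replicate block 2 were lower (4.52%), and it changed no other call. Same-numbered arrays correlated above 0.1 only for number 2, so the numbers were not used as pairs, and whether the second arrays share a source was not tested. With all shared histone probe sets added, also chosen after seeing the data, 3 of 60 were lower (4.27%). The median histone difference ran from -0.092 to -0.0048 without single arrays. It was 0.047 without the second null and first wild-type arrays, and -0.17 both with the shared probe sets of the rule's genes and with all shared sets. The cause of these shifts was not tested.

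Single-gene reversals were as follows. Under quantile normalization Mcm2 was at -0.019. With arrays centred on their median H2ac15 was at 0.025, H2ac12 at 0.029 and H2bc22 at 0.00039. With array weights H2ac1 was at -0.11, H4c1 at -0.067, H2bc12 at 0.025, H2ac12 at 0.031 and Mcm2 at -0.031. Without the second null and first wild-type arrays H1f1 was at 0.19, H2ac1 at -0.35, H2ac10 at 0.039, H2ac20 at 0.15, H2ac15 at 0.013, H2bc3 at 0.055, H4c1 at -0.22, H2bc12 at 0.47, H2ac12 at 0.078, H2bc22 at 0.00096, H4c12 at 0.15, Macroh2a2 at 0.19 and Slbp at 0.092. Without both second arrays H1f1 was at 0.096, H2bc14 at -0.072, H4c1 at -0.085, H2bc12 at 0.33 and H2ac12 at 0.079.

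Leaving out 1 array at a time gave ranges across 0 for the following genes: H1f1 -0.25 to 0.16, H1f3 -0.32 to 0.24, H1f5 -0.16 to 0.40, H1f6 -0.17 to 0.055, H2ac1 -0.22 to 0.22, H2ac12 -0.069 to 0.066, H2ac15 -0.090 to 0.033, H2ac20 -0.54 to 0.13, H2ac21 -0.081 to 0.59, H2bc12 -0.54 to 0.41, H2bc14 -0.025 to 0.38, H2bc18 -0.21 to 0.20, H2bc22 -0.096 to 0.036, H4c1 -0.12 to 0.17, H4c8 -0.45 to 0.13, H4c12 -0.24 to 0.068, H4c14 -0.044 to 0.48, Mcm2 -0.092 to 0.19 and Macroh2a2 -0.41 to 0.021. Only 13 of the 26 histone genes had a mean above the median signal, which limits what the dimmer ones can show.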
